A study of Mus musculus with 24 samples.

Results

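The 10 genes described here encode proteins that make melanin or build the melanosome, the organelle that holds it: Pmel, Mlana, Gpr143, Tyr, Tyrp1, Dct, Oca2, Slc45a2, Slc24a5 and Rab38. They were taken by name from the 31053 genes of the count files, and all 10 were found and passed the filter on low counts, among 12303 genes tested. Messenger RNA was counted in isolated retinal pigment epithelium (RPE) of mice, the pigmented cell layer behind the retina, in 24 libraries that read 1 tag near the 3′ end of each transcript. Control mice carried the Dct-Cre transgene, in which the promoter of Dct drives Cre recombinase in pigment cells. Mutant mice carried Dct-Cre together with the floxed Ift20 gene, whose protein belongs to the intraflagellar transport complex, needed to build cilia. Both genotypes were sampled on days 11 and 29 after birth (P11 and P29) and at 3 months of age (3M), which gave 6 groups of 4 libraries. All mice were of mixed background strain, sex was not collected, and no treatment was given. The libraries of a group are numbered as biological replicates, but the labels do not say whether each is 1 animal or a pool, and they say that RNA was mixed before library preparation without naming with what, so the p-values reflect library-to-library spread that may be partly technical. One of the genes, Dct, supplies the driver promoter, and both genotypes carry that transgene.

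Melanin is made inside melanosomes, which mature in stages. PMEL is cut into fibrils that form the striated inner matrix of the early organelle. Tyrosinase then oxidises tyrosine, and the related enzymes TYRP1 and DCT process later intermediates, while channels and transporters set the ion content and pH of the organelle and a Rab GTPase brings the enzymes there. In the RPE most pigment is laid down before and shortly after birth, whereas melanocytes of the neighbouring choroid use the same genes.

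Libraries held 1513440 to 2889946 gene counts, and a count of 3 stood for 1.00 to 1.90 CPM (counts scaled to a common library total with TMM factors). Counting error is all that these floors cover. Of the 10 RPE markers examined, 9 were tested, and Best1 was near 0 in all groups (0 to 6.64 CPM). Ift20 was lower in mutants at P29 (log2 fold change −0.60, SE 0.15, adjusted p = 0.0112, edgeR), where its mean was 71.3 ± 12.9 CPM against 108.0 ± 18.3 (SD, n = 4 each). At P11 it was 85.6 ± 8.22 against 102.7 ± 36.9 CPM and at 3M 112 ± 9.40 against 134 ± 18.3 CPM, with adjusted p of 0.353 and 0.547 by the same edgeR test. This call did not hold without control replicate 1 (adjusted p = 0.0711), control replicate 3 (0.0750) or mutant replicate 2 (0.0962), nor under scaling to the RPE markers (−0.34, adjusted p = 0.191). The tags lie near the 3′ end and the floxed exons are not given in the labels, so this check is limited. Rod photoreceptor RNA was present in all libraries, and the summed level of 10 rod markers ran from 3756 to 16010 CPM.

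In GRCm38 coordinates (the mm10 build), Tyr lies at chr7:87424771-87493512 on the minus strand, Tyrp1 at chr4:80834123-80851719 on the plus strand and Dct at chr14:118012790-118052244 on the minus strand. Pmel lies at chr10:128704195-128720238 and Mlana at chr19:29697824-29708634, both on the plus strand. Over the last 500 bases of each gene, where tags are expected, exons of Dgka overlap Pmel and exons of Myef2 overlap Slc24a5 on the opposite strand, and the other 8 genes overlap no other annotated exon. The sources used here do not say whether counting used strand, so it is not known how reads were assigned where these exons meet. Reads entered as ambiguous, 0.192% to 0.322% of a library's entries, were left out of all totals.

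The promoters of the tyrosinase family are shown because its 3 members took different courses on the CPM scale, as described next. Tyr stayed near 1 level. Tyrp1 fell with age and moved in opposite directions with genotype at P11 and P29. Dct fell with age and differed by genotype at 3M. Each line gives the 250 bases before the RefSeq start, 5′ to 3′ on the gene's strand, on GRCm38.p6: chr7:87493513-87493762 for Tyr, chr4:80833963-80834212 for Tyrp1 and chr14:118052247-118052496 for Dct. Capitals mark matches on either strand to the M-box core CATGTG, a sequence bound by the pigment cell factor MITF, with the preceding T where the longer form TCATGTG is met, and to TAATCC, a sequence bound by OTX2.
Tyr: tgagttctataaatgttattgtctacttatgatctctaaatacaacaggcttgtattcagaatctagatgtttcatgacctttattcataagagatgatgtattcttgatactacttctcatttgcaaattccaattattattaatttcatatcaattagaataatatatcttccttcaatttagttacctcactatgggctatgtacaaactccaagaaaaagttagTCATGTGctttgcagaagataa
Tyrp1: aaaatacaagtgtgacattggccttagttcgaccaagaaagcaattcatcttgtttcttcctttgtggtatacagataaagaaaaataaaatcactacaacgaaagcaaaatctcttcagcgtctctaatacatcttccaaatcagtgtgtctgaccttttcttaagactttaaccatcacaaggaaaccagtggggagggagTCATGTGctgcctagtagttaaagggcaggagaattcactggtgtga
Dct: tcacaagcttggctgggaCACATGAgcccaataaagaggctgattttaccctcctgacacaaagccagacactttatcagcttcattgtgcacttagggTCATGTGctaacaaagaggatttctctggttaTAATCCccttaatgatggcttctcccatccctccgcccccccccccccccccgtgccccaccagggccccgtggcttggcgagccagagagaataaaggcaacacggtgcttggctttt
RefSeq starts differ from those of the GENCODE genes placed above: that of Tyrp1 lies 90 bases inside the gene's span, that of Dct 2 bases outside it, and that of Tyr is the same. The longer M-box form was found in all 3, beginning 22 bases before the RefSeq start of Tyr, 47 bases before that of Tyrp1 (and so inside the GENCODE span), and 151 bases before that of Dct. Dct held a further copy on the other strand, 232 bases before the start, and the TAATCC match at 119 bases. Windows were given for 5 of the 10 genes, and the others with one were Slc24a5, with the longer form on the other strand at 13 bases, and Oca2, with the core alone on the other strand at 186 bases. Among all 32851 windows of the same length, 12.2% held CATGTG, which overlaps every match of the longer form, 3.25% held TCATGTG, 6.25% held TAATCC and 6.02% held the related E-box CACGTG. The E-box was found in none of these 5 windows. These matches describe the letters only.

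In control RPE the melanosome matrix gene Pmel and the pigment enzyme genes Tyrp1 and Dct fell steeply with age in CPM, as did Mlana. Also in CPM, Tyr stayed near 1 level and Slc24a5 and Oca2 rose. Levels relative to the RPE markers are given below. Between P11 and P29, 4 of the 10 genes were called lower and 2 higher by edgeR at an adjusted p under 0.05, against 15.6% of all tested genes called lower and 16.5% called higher. The groups did not overlap for the 4 genes that fell, where 13.9% of all genes lay wholly lower, nor for 1 gene that rose, where 13.7% lay wholly higher. Between P29 and 3M the same 4 genes fell and none of the 10 was called higher, against 8.50% lower and 3.49% higher among all genes. At that step 3 of the 4 did not overlap, against 8.99% of all genes. The median log2 change of the 10 genes was −0.34 from P11 to P29 and −0.19 from P29 to 3M, beside −0.02 and −0.03 for all tested genes. For that count of 0 higher at the second step, 0 genes of the 10 rose at an unadjusted edgeR p under 0.05, and DESeq2 and voom also called 0.

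Pmel showed the widest range. In controls it measured 2147, 2180, 2272 and 1960 CPM at P11, 338, 357, 294 and 318 CPM at P29, and 85.0, 104, 77.6 and 99.8 CPM at 3M. Every P29 control lay below every P11 control and above every 3M control. The fall was 6.54-fold from P11 to P29 (log2 fold change −2.71, SE 0.08, adjusted p = 8.85e-48, edgeR) and 3.57-fold from P29 to 3M (−1.84, SE 0.09, adjusted p = 8.84e-33). From P11 to 3M the control mean fell 23.4-fold.

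Mlana, which encodes a small melanosomal membrane protein that binds PMEL and takes part in its processing, measured 110, 140, 114 and 117 CPM in P11 controls, 62.8, 58.2, 80.4 and 64.4 CPM in P29 controls, and 60.2, 47.4, 31.8 and 41.6 CPM in 3M controls. The P11 and P29 groups did not overlap, whereas the P29 and 3M groups did. The change was −0.86 (SE 0.16, adjusted p = 3.37e-06, edgeR) at the first step and −0.55 (SE 0.16, adjusted p = 0.0119) at the second. The second call was lost without control 3M replicate 3 (adjusted p = 0.111, edgeR) or without control P29 replicate 3 (adjusted p = 0.0916). Gpr143, a receptor of the melanosome membrane that limits melanosome size, was measured at 11.2 to 33.7 CPM in P11 controls, 20.3 to 28.02 CPM at P29 and 22.1 to 43.2 CPM at 3M, and its control changes of 0.35 and 0.32 were not called.

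Among the enzymes, Tyrp1, which stabilises tyrosinase and acts late in eumelanin synthesis, measured 473, 456, 487 and 451 CPM in P11 controls, 226, 211, 228 and 264 CPM at P29, and 143, 136, 140 and 124 CPM at 3M. The 3 ages did not overlap. Tyrp1 fell by 1.01 on the log2 scale to P29 (SE 0.09, adjusted p = 3.40e-17, edgeR) and by a further 0.77 to 3M (SE 0.09, adjusted p = 1.14e-10). Dct, the dopachrome tautomerase, measured 6948, 7796, 7167 and 7807 CPM in P11 controls, 4440, 4564, 4860 and 4933 CPM at P29, and 2607, 2703, 2520 and 2834 CPM at 3M. Its ages also did not overlap, and it fell by 0.66 (SE 0.05, adjusted p = 7.42e-23, edgeR) and then by 0.82 (SE 0.05, adjusted p = 2.80e-28). Tyr, the rate-limiting enzyme, stayed between 125 and 182 CPM in all 12 control libraries, with changes of 0.16 (SE 0.12, adjusted p = 0.329, edgeR) and −0.05 (SE 0.12, adjusted p = 0.863).

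Among the transporter genes, Slc24a5 and Oca2 rose at the first step, while Slc45a2 was not called at either step. The GTPase gene Rab38 was not called at either step. Slc24a5, a potassium-dependent sodium and calcium exchanger, measured 201, 231, 247 and 232 CPM in P11 controls and 272, 271, 336 and 281 CPM at P29. These groups did not overlap (log2 fold change 0.35, SE 0.09, adjusted p = 0.00134, edgeR), and the step to 3M, where values ran from 305 to 346 CPM, was not called (0.17, SE 0.09, adjusted p = 0.264). Oca2, a channel that raises melanosome pH, went from 39.4 to 74.0 CPM at P11 to 63.5 to 98.8 CPM at P29, and these groups overlapped. It was called higher (0.48, SE 0.17, adjusted p = 0.0262, edgeR), but the call was lost without control P11 replicate 1 (adjusted p = 0.172), control P11 replicate 4 (0.123) or control P29 replicate 3 (0.199). DESeq2 (0.0843), voom (0.0644), median-of-ratios scaling (0.0654) and the fit to only the compared groups (0.1003) did not call it either.

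Slc45a2, a transporter that also acts on melanosome pH, ran from 28.9 to 65.2 CPM in P11 controls, 18.3 to 37.1 CPM at P29 and 15.7 to 25.3 CPM at 3M, and the changes of −0.62 (SE 0.27, adjusted p = 0.0629, edgeR) and −0.33 (SE 0.27, adjusted p = 0.536) were not called. Every 3M control lay below every P11 control, and the control mean fell 1.95-fold over that span. The first change was called in 5 alternatives: by DESeq2 (−0.70, adjusted p = 0.0345), under median-of-ratios scaling (−0.69, 0.0357, edgeR), and by edgeR without control P11 replicate 2 (−0.75, 0.0309), control P11 replicate 4 (−0.73, 0.0384) or control P29 replicate 2 (−0.83, 0.0221). Rab38, a small GTPase that carries tyrosinase and TYRP1 to the melanosome, had the lowest counts, 8.23 to 18.7 CPM in all controls, and its changes of −0.05 (SE 0.39) and 0.35 (SE 0.38) were within their error.

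**Figure D1:**
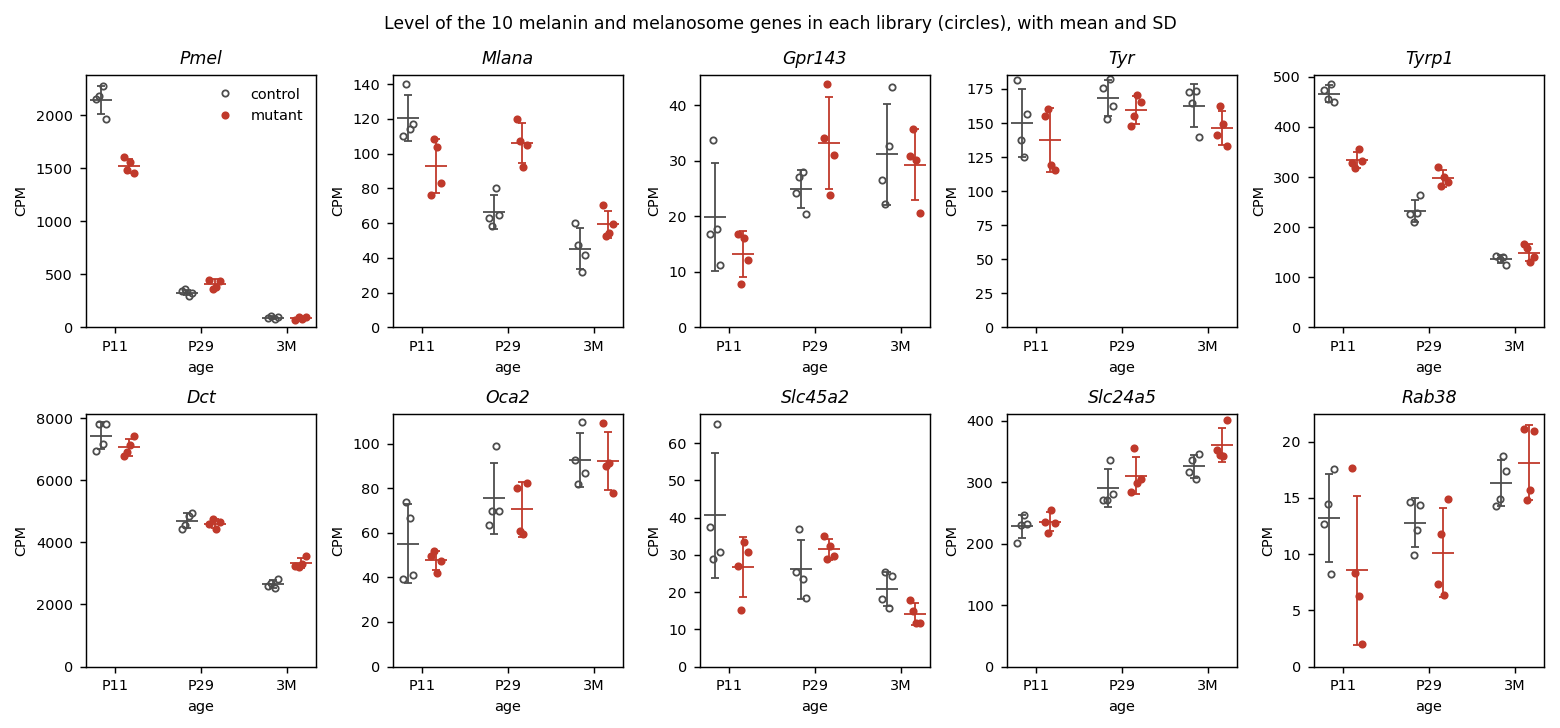
Level in CPM (vertical axes, from 0) of each of the 10 genes against age, with 1 circle per library (open, control; filled, mutant) and bars for the mean and SD of 4 libraries. Pmel, Tyrp1 and Dct fall at each age in controls, and at P29 the mutant libraries of Pmel, Tyrp1 and Mlana lie above the controls.

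Other cell types also shifted with age in the controls. The summed level of the RPE marker list rose from 19210 to 19950 CPM at P11 to 49520 to 50420 CPM at P29 and 66670 to 69620 CPM at 3M. Rod markers fell from 10930 to 12290 CPM to 9758 to 10650 and 3756 to 4183 CPM. Stromal fibroblast markers ran from 2928 to 3261, 1880 to 1995 and 545 to 1138 CPM over the same ages. Endothelial markers summed to 314 to 358 CPM at P11, 51.6 to 82.1 CPM at P29 and 10.5 to 19.9 CPM at 3M. Myelin markers summed to 306 to 436, 93.6 to 118 and 38.4 to 62.6 CPM. Lens markers summed to 75.2 to 124, 19.99 to 30.7 and 0 to 5.47 CPM. In bulk RNA, fewer cells of a type and less RNA per cell cannot be told apart, and the part of these shifts in the changes with age was not tested. The melanocyte list summed to 154 to 234 CPM at P11, 205 to 239 CPM at P29 and 212 to 234 CPM at 3M in controls, and Sox10, which was higher at P29 than at P11 (1.14, SE 0.15, adjusted p = 2.47e-08, edgeR), made up most of the sum at the later ages. Of the 7 tested melanocyte markers, Ednrb, Mlph and Fabp7 were lower at P29 than at P11 (−2.06, −0.91 and −4.47, adjusted p = 3.99e-05, 0.0192 and 3.23e-05, edgeR), Kit, Mc1r and Pax3 were not called at that step, and Pax3 had no count in any 3M control. From P29 to 3M, 3 of these 7 were called lower and none higher by edgeR, beside 8.50% and 3.49% of all tested genes. Their median log2 change at that step was −1.02, with 4 below 0 and 3 above. Mean Ednrb fell from 33.6 CPM at P11 to 0.638 CPM at 3M and Mlph from 39.5 to 10.3 CPM. Over the same span Sox10 rose from 83.85 to 198 CPM and Kit stood at 11.9 and 11.7 CPM.

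At P11, Pmel and Tyrp1 were lower in mutants than in controls by about the same amount. They were 2 of the 10 genes called lower, with none called higher, against 3.67% lower and 3.26% higher among all tested genes. The log2 difference lay below 0 for 9 of the 10 genes, with a median of −0.43 beside a median close to 0 for all genes. The count of 0 higher was also 0 at an unadjusted edgeR p under 0.05 and by DESeq2 and voom. For 3 genes, Pmel, Tyrp1 and Mlana, every mutant lay below every control, against 4.97% of all genes.

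Pmel measured 1601, 1485, 1555 and 1455 CPM in P11 mutants, all under the lowest control at 1960 CPM. The means were 1524 ± 66.4 CPM in mutants and 2140 ± 131 CPM in controls (SD, n = 4 each; log2 fold change −0.49, SE 0.08, adjusted p = 1.58e-06, edgeR). Tyrp1 measured 328, 318, 356 and 333 CPM in P11 mutants against a lowest control of 451 CPM (−0.48, SE 0.09, adjusted p = 6.00e-05, edgeR). Mlana measured 76.2, 109, 104 and 83.2 CPM in P11 mutants, below the lowest control of 110 CPM by a narrow margin (−0.37, SE 0.15, adjusted p = 0.139, edgeR), and was not called.

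The remaining 7 genes overlapped between genotypes at P11. Dct measured 6770, 6915, 7118 and 7418 CPM in mutants, a difference of −0.07 (SE 0.05, adjusted p = 0.410, edgeR) from controls. Tyr ran from 116 to 160 CPM in mutants (−0.14, SE 0.12), Oca2 from 42.0 to 51.9 CPM (−0.19, SE 0.18) and Slc24a5 from 218 to 256 CPM (0.05, SE 0.09). The lower-count genes Slc45a2 (−0.60, SE 0.27), Gpr143 (−0.57, SE 0.30) and Rab38 (−0.65, SE 0.41) had larger differences with larger errors, and mutant Rab38 ran from 2.03 to 17.7 CPM.

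At P29 the order was turned round: Pmel, Tyrp1 and Mlana were higher in mutants. These 3 genes were called higher and none of the 10 lower, against 1.63% higher and 1.21% lower among all tested genes, and the same 3 did not overlap, where 3.67% of all genes lay wholly higher. The count of 0 lower was also 0 at an unadjusted edgeR p under 0.05 and by DESeq2 and voom. The median over the 10 genes was 0.18, beside a median close to 0 for all genes. Pmel measured 450, 364, 382 and 440 CPM in P29 mutants, all above the highest control at 357 CPM (log2 fold change 0.32, SE 0.08, adjusted p = 0.00626, edgeR). Tyrp1 measured 321, 281, 300 and 289 CPM against a highest control of 264 CPM (0.36, SE 0.09, adjusted p = 0.00859, edgeR). Mlana had the largest difference of the 3, at 120, 107, 92.2 and 105 CPM against a highest control of 80.4 CPM (0.67, SE 0.15, adjusted p = 0.00246, edgeR).

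The P29 calls of Pmel and Tyrp1 were lost on leaving out certain single libraries. The call of Pmel was lost without control replicate 3 (adjusted p = 0.0616, edgeR), mutant replicate 1 (0.0603) or mutant replicate 4 (0.0521), and that of Tyrp1 when control replicate 2 (0.0695) or mutant replicate 1 (0.0596) was left out. Without P29 mutant replicate 1, 1 gene of the 10 was called, and that gene was Mlana, which stayed called in every alternative run. Dct at P29 measured 4595, 4750, 4428 and 4644 CPM in mutants, within the range of the controls or below it (−0.03, SE 0.05, adjusted p = 0.906, edgeR). Tyr (148 to 171 CPM), Oca2 (59.4 to 82.3 CPM), Slc45a2 (28.8 to 35.0 CPM), Gpr143 (23.9 to 43.7 CPM), Slc24a5 (284 to 355 CPM) and Rab38 (6.41 to 14.9 CPM) overlapped with controls, with differences between −0.33 and 0.41.

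At 3M the only gene of the 10 called by edgeR was Dct, which was higher in mutants. Among all tested genes 2.13% were called higher and 0.48% lower. Dct measured 3235, 3203, 3300 and 3569 CPM in mutants, above the highest control of 2834 CPM, and 5.07% of all genes lay wholly higher. Its means were 3327 ± 167 and 2666 ± 135 CPM (SD, n = 4 each; log2 fold change 0.32, SE 0.05, adjusted p = 3.58e-07, edgeR). The median over the 10 genes was 0.06, beside 0.03 for all genes.

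Pmel measured 70.4, 98.9, 82.2 and 97.8 CPM in 3M mutants and overlapped the controls (−0.07, SE 0.09, adjusted p = 0.897, edgeR). Tyrp1 measured 167, 158, 129 and 141 CPM and also overlapped (0.13, SE 0.10, adjusted p = 0.722, edgeR). Mlana measured 70.4, 52.7, 54.3 and 59.4 CPM, with 3 of 4 mutants within the control range (0.39, SE 0.16, adjusted p = 0.292, edgeR). Slc45a2 was measured at 11.7 to 17.99 CPM in mutants (−0.56, SE 0.29, adjusted p = 0.459, edgeR), and Tyr, Oca2, Gpr143, Slc24a5 and Rab38 differed by −0.15 to 0.15.

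**Figure D2:**
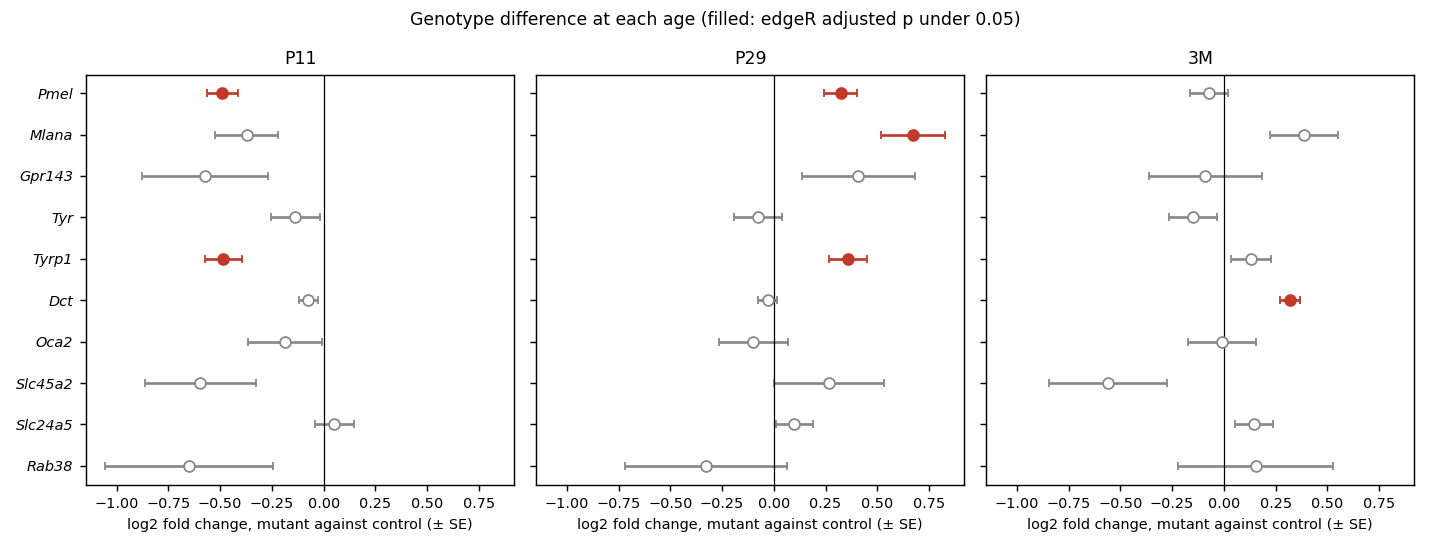
Log2 fold change of mutant against control (horizontal axis, bars 1 SE) for each gene at P11, P29 and 3M, filled where the edgeR adjusted p is under 0.05. Pmel and Tyrp1 lie below 0 at P11 and above 0 at P29, and Dct is filled at 3M.

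The test of the change in the genotype difference between ages called Pmel, Tyrp1 and Mlana from P11 to P29. These were 3 genes of 10 higher and none lower, against 1.45% higher and 1.18% lower among all tested genes. The shift was 0.81 for Pmel (SE 0.11, adjusted p = 5.54e-08, edgeR), 0.84 for Tyrp1 (SE 0.13, adjusted p = 1.00e-06) and 1.04 for Mlana (SE 0.22, adjusted p = 0.000805) on the log2 scale. All 10 shifts lay above 0, with a median of 0.57 beside 0.02 for all genes. They ran down to 0.05 for Dct (SE 0.07) and Slc24a5 (SE 0.13), 0.06 for Tyr (SE 0.17) and 0.09 for Oca2 (SE 0.25), while Gpr143 (0.98, SE 0.41), Slc45a2 (0.86, SE 0.38) and Rab38 (0.32, SE 0.56) were not called. This shift shares its libraries with the comparisons at P11 and P29.

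The same shift appears as a different course with age within each genotype. From P11 to P29 mean Pmel fell 6.55-fold in controls and 3.72-fold in mutants, and from P29 to 3M it fell 3.57-fold in controls and 4.69-fold in mutants. Mean Tyrp1 fell 2.01-fold in controls and 1.12-fold in mutants at the first step, where the P11 and P29 mutant groups overlapped, and 1.71-fold and 2.00-fold at the second. Mean Mlana was 66.4 CPM in controls and 106 CPM in mutants at P29, after 121 and 92.9 CPM at P11.

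From P29 to 3M a shift in the genotype difference was called for Dct alone among the 10 genes (0.35, SE 0.07, adjusted p = 0.000479, edgeR). Among all tested genes 0.61% were called higher and 0.244% lower. The shift of Pmel at that step was −0.39 (SE 0.12, adjusted p = 0.105, edgeR). Over the whole span from P11 to 3M, 4 genes were called higher and none lower, against 1.94% higher and 0.585% lower among all genes: Pmel (0.42, SE 0.12, adjusted p = 0.0332, edgeR), Tyrp1 (0.62, SE 0.13, adjusted p = 0.00130), Dct (0.39, SE 0.07, adjusted p = 2.00e-05) and Mlana (0.76, SE 0.22, adjusted p = 0.0413). The calls of Pmel and Mlana over this span were lost in 10 and 11 of 23 alternative settings, with edgeR or voom adjusted p up to 0.212 and 0.145. Pmel lost its call without control 3M replicate 1 or 3, mutant 3M replicate 2 or 4, control P11 replicate 2 or 3, or mutant P11 replicate 2 or 4 (adjusted p = 0.0541 to 0.133, edgeR). Mlana lost its call without control 3M replicate 2, 3 or 4, mutant 3M replicate 1 or 4, control P11 replicate 2, or mutant P11 replicate 1 or 4 (adjusted p = 0.0551 to 0.145, edgeR).

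**Figure D3:**
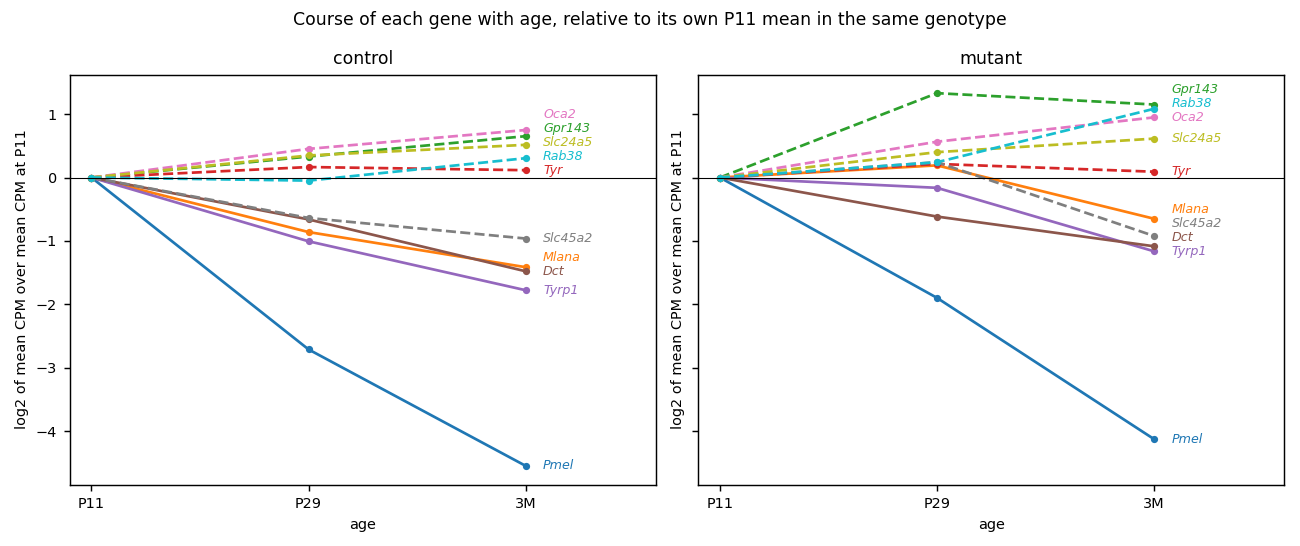
Log2 of each gene's mean CPM over its own mean at P11 (vertical axis) against age, for controls (left) and mutants (right), with solid lines for Pmel, Tyrp1, Dct and Mlana. Mean Pmel falls 23.4-fold in controls and 17.5-fold in mutants by 3M, and the P29 points of Tyrp1 and Mlana lie nearer to 0, or above it, in mutants.

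The makeup of the libraries moved with genotype too. The geometric mean of the 9 tested RPE markers was 768 ± 20.9 CPM in mutants and 892 ± 31.03 in controls at P11, 2060 ± 23.7 against 2473 ± 81.2 at P29, and 3147 ± 93.8 against 3248 ± 77.3 at 3M (SD, n = 4 each). When libraries were scaled to these RPE markers, Pmel and Tyrp1 stayed called lower at P11 (both −0.27, adjusted p = 0.0112 and 0.0346, edgeR). At P29 that scaling gave 0.59 for Pmel, 0.62 for Tyrp1 and 0.93 for Mlana, and 5 of the 10 genes were called higher, the others being Dct (0.23) and Slc24a5 (0.36). It also moved the median of all genes to 0.22 at P11, 0.26 at P29 and 0.08 at 3M. Dct and Slc24a5 at P29 lay near that median, and without this scaling neither was called by edgeR (−0.03 and 0.10). The share of all tested genes called under this scaling is not given here, so the count of 5 has no background beside it. At 3M Dct stayed called (0.37, adjusted p = 1.74e-06, edgeR).

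Markers of other cells also differed with genotype. The summed rod markers ran from 13890 to 14600 CPM in mutants against 10930 to 12290 in controls at P11, from 14540 to 16010 against 9758 to 10650 at P29, and from 6850 to 7360 against 3756 to 4183 at 3M. Of the 10 rod markers, 6 were higher in mutants at P11 and 9 at each of the later ages. Among all tested genes 3.26% were called higher at P11, 1.63% at P29 and 2.13% at 3M, and 3.67% were called lower at P11. Lens markers summed to 680 to 747 CPM in P29 mutants against 19.99 to 30.7 CPM in P29 controls, with 7 of 7 called higher, and at P11 4 of 7 were called lower. The share of counts from mitochondrial genes was 10.8% ± 0.375 in P11 mutants and 7.81% ± 0.703 in P11 controls (SD, n = 4 each), and that of reads in no feature was 26.5% to 27.5% against 22.7% to 24.1%, which did not overlap. The part of these shifts in the melanosome gene results was not tested.

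Choroidal melanocytes are the other pigment cells that such a dissection can hold. Their list summed to 99.4 to 123 CPM in P11 mutants and 154 to 234 CPM in P11 controls, which did not overlap. At that age 3 of 7 tested melanocyte markers were lower in mutants: Ednrb (−2.02, SE 0.42, adjusted p = 0.000517, edgeR), Mlph (−1.08, SE 0.32, adjusted p = 0.0231) and Sox10 (−0.59, SE 0.16, adjusted p = 0.0173). Mlph was no longer called without control replicate 2 or mutant replicate 1, 2 or 4 (adjusted p = 0.0606 to 0.122, edgeR), and Sox10 not without control replicate 2 or mutant replicate 2, 3 or 4 (0.0641 to 0.155). Under RPE marker scaling neither was called (0.0608 and 0.143, edgeR), and Sox10 was not called by voom (0.234) or in the edgeR fit to only the compared groups (0.0851). Ednrb stayed called in every alternative run. Endothelial markers (4 of 7 lower), myelin markers (4 of 4), RPE markers (5 of 9) and stromal fibroblast markers (2 of 6) moved the same way at P11. At that age 3.67% of all tested genes were called lower. Stromal fibroblast markers summed to 2427 to 2666 CPM in P11 mutants against 2928 to 3261 CPM in controls. RPE markers were also lower at P29 (4 of 9) and 3M (1 of 9), where 1.21% and 0.48% of all tested genes were called lower. The genotype difference of some marker lists also shifted upward from P11 to P29, as it did for Pmel, Tyrp1 and Mlana. This shift was called upward for 4 of 7 endothelial, 3 of 4 myelin, 7 of 7 lens, 4 of 10 rod and 1 of 7 melanocyte markers. Of 6 stromal fibroblast markers 0 were called, and of 9 RPE markers 1 was called downward. Among all tested genes 1.45% were called upward and 1.18% downward. Endothelial markers summed to 149 to 206 CPM in mutants against 314 to 358 CPM in controls at P11 and to 82.8 to 105 against 51.6 to 82.1 CPM at P29. Myelin markers summed to 24.1 to 46.7 against 306 to 436 CPM at P11 and to 57.9 to 100.3 against 93.6 to 118 CPM at P29. At P29 the melanocyte list summed to 182 to 210 CPM in mutants and 205 to 239 CPM in controls, with 0 of 7 called. At 3M it summed to 235 to 296 against 212 to 234 CPM, again with 0 of 7. Sox10 made up most of these sums. Its 3M mean was 233.5 CPM beside a mean sum of 261.8 CPM in mutants, and 198.4 beside 222.4 CPM in controls. Erbb3 was not tested, and it was at 0 in all 3M mutants as Pax3 was in all 3M controls. The part of RNA from these other cells in the genotype differences of Pmel, Tyrp1 and Mlana was not tested.

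**Figure D4:**
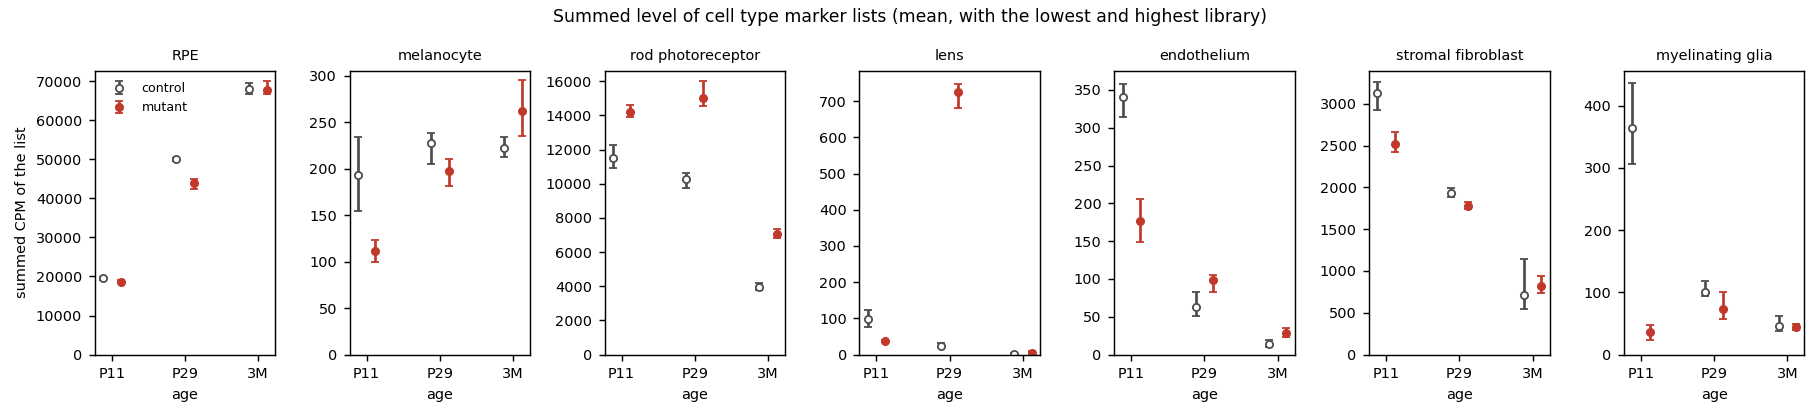
Summed CPM of 7 cell type marker lists (vertical axes, from 0) against age in controls (open) and mutants (filled), with the mean of 4 libraries and the lowest and highest library as bars. Rod markers are higher in mutants at all 3 ages, lens markers at P29 alone stand at 680 to 747 CPM, and melanocyte markers are lower in P11 mutants.

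Genes of the wider melanosome machinery were called lower more than higher in P11 mutants. Of 49 tested genes in 5 lists, 7 (14.3%) were lower at P11 and none higher, beside 3.67% lower and 3.26% higher among all tested genes. At P29, 2 (4.08%) were lower and none higher, beside 1.21% and 1.63%, and at 3M, 1 was lower and 1 higher (2.04% each), beside 0.48% and 2.13%. The median log2 difference over the 49 genes was −0.08 at P11, −0.07 at P29 and −0.06 at 3M, beside medians close to 0, close to 0 and 0.03 for all genes. Of the 9 tested RPE markers, 5 were lower and 0 higher at P11, with a median log2 difference of −0.25. Mitf, the master transcription factor of pigment cells, measured 75.5 to 90.7 CPM in P11 mutants against 110 to 144 CPM in controls, which did not overlap (log2 fold change −0.56, SE 0.12, adjusted p = 0.000911, edgeR). At P29 (−0.21, SE 0.11, adjusted p = 0.506) and 3M (−0.01, SE 0.12, adjusted p near 1) it was not called by edgeR. Among the factors Sox9, which acts with MITF on RPE genes, was lower at P11 (−0.27, SE 0.08, adjusted p = 0.0156, edgeR) and at P29 (−0.39, SE 0.07, adjusted p = 5.87e-05). Pax6, an eye field factor, was higher at 3M (1.21, SE 0.33, adjusted p = 0.0192, edgeR), at 8.28 to 14.8 CPM against 3.16 to 9.15 CPM. These were 2 of 7 tested factors lower at P11, 1 lower at P29 and 1 higher at 3M, beside 3.67%, 1.21% and 2.13% of all tested genes, and Otx2 was not called at any age. The factors Tfec and Usf1 had too few counts to be tested.

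In the melanosome matrix list (5 genes tested), Gpnmb, a PMEL relative, was lower at P11 (435 to 475 against 526 to 639 CPM; −0.32, SE 0.08, adjusted p = 0.00393, edgeR), and no gene was called at P29 or 3M. Of 8 trafficking motors and Rabs, Rab27a, which ties melanosomes to myosin, was lower at P11 (−0.41, SE 0.12, adjusted p = 0.0280, edgeR). Of 20 subunits of the complexes that build lysosome-related organelles, Bloc1s1 was lower at P11 (−0.38, SE 0.12, adjusted p = 0.0429) and Bloc1s2 at 3M (−2.95, SE 0.82, adjusted p = 0.0254), both by edgeR. Bloc1s2 rested on 9 counts in all 3M mutants and on 1 control library at 19.9 CPM, and an annotated exon of Rdh5 overlaps the end of Bloc1s1 on its strand.

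Of 9 tested transporters, the cystine transporter gene Slc7a11 was lower at P11, with 13 counts in all mutants and 103 in all controls (−3.14, SE 0.96, adjusted p = 0.0271, edgeR). Ostm1, a subunit of a lysosomal chloride transporter, was also lower at P11 (−0.57, SE 0.18, adjusted p = 0.0431), and Atp6ap1, an accessory subunit of the proton pump, was lower at P29 (−0.31, SE 0.09, adjusted p = 0.0439). Tpcn2, a melanosome cation channel, had too few counts to be tested.

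Of these list calls, those of Mitf and Gpnmb at P11 and of Sox9 at P29 were lost under RPE marker scaling alone, with edgeR adjusted p of 0.0594, 0.479 and 0.383. That scaling also ended the calls of Sox9 (−0.05), Rab27a (−0.19), Bloc1s1 (−0.16) and Ostm1 (−0.36) at P11 and of Atp6ap1 (−0.05) at P29, with edgeR adjusted p of 0.240 to 0.825. By voom these 5 calls and those of Bloc1s2 and Pax6 at 3M were lost (adjusted p = 0.0672 to 0.243). DESeq2 did not call Bloc1s1 (adjusted p = 0.0503), Ostm1 (0.0517) or Atp6ap1 (0.0794). In the edgeR fit to only the compared groups Sox9 at P11, Rab27a, Bloc1s1, Ostm1 and Pax6 were not called (0.105 to 0.151). With the replicate number as a block the calls of Bloc1s1 (0.0511), Bloc1s2 (0.0700) and Atp6ap1 (0.0530) were lost. Without the low-count filter Sox9 at P11 (0.0537), Bloc1s1 (0.0502) and Atp6ap1 (0.0619) were not called, nor was Atp6ap1 under median-of-ratios scaling (0.0543), all by edgeR. Except for Mitf, Gpnmb and Sox9 at P29, each of these calls was also lost on leaving out certain single libraries. At P11, Rab27a lost its call without control replicate 4 or mutant replicate 1, 2 or 4 (adjusted p = 0.0767 to 0.218, edgeR), and Bloc1s1 without control replicate 1 or 2 or mutant replicate 1, 2 or 3 (0.0526 to 0.374). Ostm1 lost its call without control replicate 3 or mutant replicate 1 or 4 (0.141 to 0.432), Sox9 at P11 without control replicate 2 or mutant replicate 3 (0.0638 to 0.109), and Slc7a11 without any library but control replicate 4 (0.0512 to 0.123). Atp6ap1 at P29 lost its call without control replicate 2 or 3 or mutant replicate 2, 3 or 4 (0.0521 to 0.363). At 3M, Bloc1s2 lost its call without control replicate 2 or mutant replicate 2, 3 or 4 (0.0743 to 0.428), and Pax6 without control replicate 1, 2 or 4 or mutant replicate 1 or 3 (0.0850 to 0.108).

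**Figure D5:**
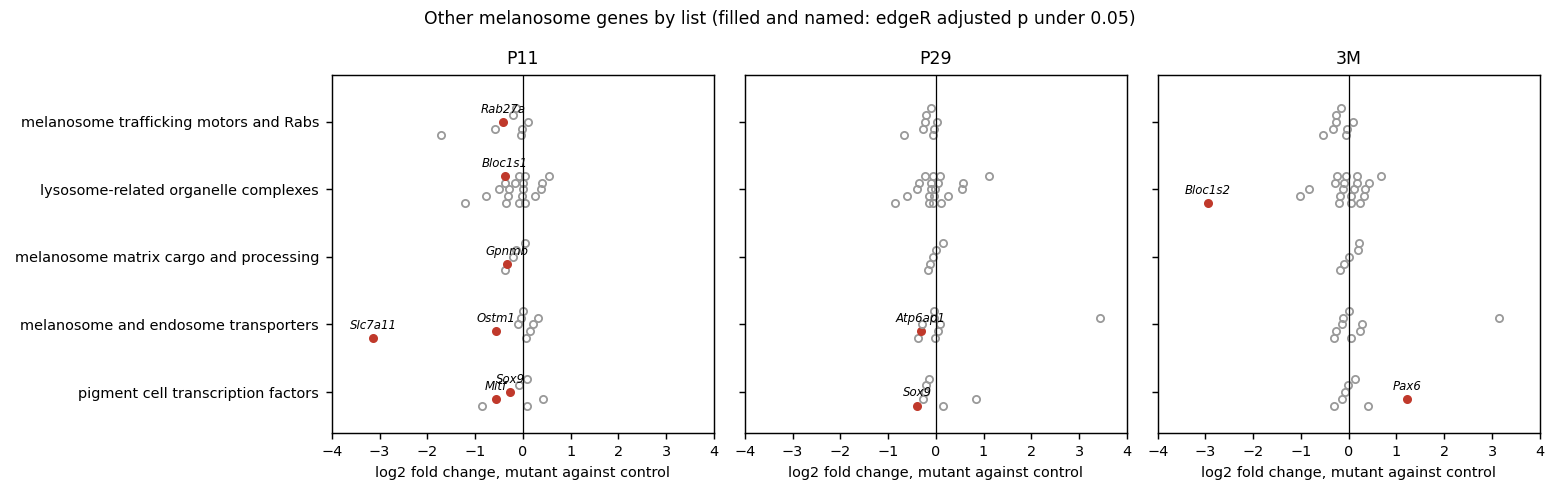
Log2 fold change of mutant against control (horizontal axis) for the tested genes of 5 melanosome lists at P11, P29 and 3M, filled and named where the edgeR adjusted p is under 0.05. Filled genes lie below 0 at P11, and few are filled at P29 and 3M.

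The 10 genes did not vary as 1 unit. Over the 24 libraries, which share age and genotype, Pearson r of log2 CPM between pairs of them ran from −0.883 to 0.971 over 45 pairs, with a median of −0.218. After the group means were taken out, r ran from −0.521 to 0.612 with a median of −0.011. The genes whose course over the 24 libraries was most like the mean standardised profile of the 10 were Prss23 (r = 0.779), Ece1 (0.778), Mobp (0.766), Prex1 (0.760) and Snx27 (0.751), among 10484 genes whose mean was 5 CPM or more. Mobp is a myelin gene. Within groups the nearest were Ndel1 (0.759), Fam53c (0.756), Ndufa1 (0.749), Hif1an (0.737) and Bfar (0.722). Taken alone, and looked for after the values were seen, Pmel was most like Dyrk2 (0.982), Tet3 (0.978), Nr2e3 (0.977), Tcf4 (0.974) and Tmsb4x (0.974). Dct was most like the rod gene Rp1 (0.981), then Cadm2 (0.975), Npnt (0.974), Nfasc (0.970) and Map1b (0.970). These are descriptions over libraries that differ in age, and they carry no p.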

How the data were processed

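RNA of isolated RPE was measured in 24 libraries prepared by poly(A) priming, read single-end. The authors deposited raw counts per gene, 1 file per library, with 31053 gene identifiers and 5 special entries, which were left out of all tests and totals. Reads in no feature made up 18.6% to 27.5% of a library's entries, ambiguous reads 0.192% to 0.322% and reads at several places 31.02% to 37.2%. STAR and mm10 are named in the submitters' processing notes, with no version, while the sources used here do not state the counting tool, its use of strand or any use of molecular identifiers.

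The 10 genes and all lists were chosen with earlier results of these data known. Tests used edgeR 4.0.16 under R 4.3.3 (quasi-likelihood), TMM factors (0.937 to 1.05), filterByExpr, a robust fit and 1 mean per group over all 24 libraries, and adjusted by Benjamini-Hochberg over 12303 genes. SE is the log2 fold change over the root of F. Depth limits precision: counting error weighs most on genes under 20 CPM. Named besides the 10 were called list genes, at most 4 per list and comparison, and the 5 most alike genes. Alternatives were median-of-ratios scaling, RPE marker scaling, DESeq2 1.42.0, voom of limma 3.58.1, other filters, the replicate block, a fit to the compared groups and leaving out each library. The scaling to RPE markers was run for the genotype difference at each age only. Chi-square per gene was 2.98 to 7.15 in the 36 replicate pairs of a group, above sampling noise, which library preparation alone can give. Symbols matched 30934 identifiers. The test was tested on simulated data.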

Additional observations from a re-analysis of the deposited data

Results flagged for a closer look

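The genotype difference changed between ages, by edgeR's test of the change itself, for Pmel (0.81 on the log2 scale), Tyrp1 (0.84) and Mlana (1.04) from P11 to P29, and for Dct from P29 to 3M (0.35). From P11 to 3M it changed for Pmel (0.42), Tyrp1 (0.62), Dct (0.39) and Mlana (0.76). These values share libraries with each other.

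Slc24a5 stood at 335.9 CPM in control replicate 3 at P29, apart from the other 3 libraries of that group at 271.4 to 281.3 CPM. It was the only sample that stood apart in 60 groups examined (10 genes in 6 groups), where chance gives about 1 in 20.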

How the results depend on the processing

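Among the 10 genes, 18 of 24 called results kept direction and call in all alternatives run, and no called result changed direction. RPE marker scaling was run only for the genotype difference at each age, so no age change or shift was put through it. Relative to the RPE markers, the mean ratios of all 10 genes fell from P11 to P29 in controls. These include Slc24a5 and Oca2, whose CPM was called higher. The count of called genes kept within 1.5 times its value except as follows. At P29 it was 5 in place of 3 under RPE marker scaling, and 1 to 3 on leaving out single libraries. That scaling also moved the median of all genes upward. From P11 to 3M the count of called shifts was 2 in place of 4 in the fit to only the compared groups and by voom, and 2 to 4 on leaving out single libraries. From P29 to 3M it was 1 to 2. The cause was not tested.

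Over all tested genes, deviations of same-numbered libraries of an age from their group means correlated at −0.020 to 0.031. Counting error weakens such correlations, so they cannot exclude a weak effect shared by same-numbered libraries. With the replicate number as a block the counts were 2 at P11, 3 at P29 and 1 at 3M, as without it.

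Of 41 results that were not called, 16 changed sign in some alternative. RPE marker scaling, which moves the median of all genes by 0.216 at P11, 0.262 at P29 and 0.077 at 3M, gave Dct 0.14, Tyr 0.08 and Oca2 0.02 at P11, Dct 0.23, Tyr 0.19 and Oca2 0.16 at P29, and Oca2 0.03 at 3M. By voom the change of Rab38 from P11 to P29 in controls was 0.02. On leaving out single libraries, the genotype difference ran from −0.01 to 0.09 for Slc24a5 at P11, from −0.18 to 0.06 for Oca2 at P29, and at 3M from −0.22 to 0.11 for Gpr143, −0.1 to 0.08 for Oca2 and −0.14 to 0.02 for Pmel. The shift from P11 to P29 ran from −0.08 to 0.25 for Oca2, −0.01 to 0.95 for Rab38, −0.02 to 0.13 for Slc24a5 and −0.05 to 0.14 for Tyr. In controls the change of Rab38 from P11 to P29 ran from −0.21 to 0.11 and that of Tyr from P29 to 3M from −0.09 to 0.02.

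Depth limits Rab38, Gpr143 and Slc45a2, with as few as 5, 18 and 26 counts in a library, where differences within the errors given were not detectable.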
